A study of Rattus norvegicus with 12 samples.

Results

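Late healing of the rat ventricle was read from 6 of the 12 arrays of the series: 3 from rats whose left anterior descending (LAD) coronary artery was occluded for 30 min and then reperfused for 7 days (7d-IR), and 3 from sham rats of the same day (7d-sham). The other 6 arrays, 3 of 2d-IR and 3 of 2d-sham rats, entered the fit only to share its estimate of the spread, and for the comparison of days at the end. Each array holds labelled total RNA of ventricle from 1 rat; the sources used here give no strain, sex, age or part of the ventricle. The replicate numbers are 44, 47 and 48 for the IR rats and 80, 81 and 82 for the sham rats, and signals below are given in that order. A signal is the linear intensity of a probe set, and a change is the difference of the means of log2(signal + 195), IR minus sham, with limma's standard error (SE); the added 195 makes the fold of a dim gene smaller than the ratio of its signals. In all 10527 probe sets were tested, which stood for 7720 named genes.

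When blood flow returns to heart muscle after a long occlusion, part of the muscle dies and is cleared by neutrophils and then macrophages. Resident fibroblasts divide, some turn into contractile myofibroblasts, and they lay down collagen, which is secreted as procollagen, trimmed and then crosslinked into a scar. Surviving cardiomyocytes burn mainly fatty acids in densely packed mitochondria, so that transcripts of mitochondrial enzymes and of the sarcomere make up a large share of normal ventricular RNA. In RNA from whole tissue, fewer cells of a type and less RNA per cell cannot be told apart.

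The defining markers of the tissue were present on every array. The summed signal of 5 cardiomyocyte markers (Myh6, Tnnt2, Tnni3, Mb and Ryr2) was 176142 to 190325 in the IR and 227156 to 272725 in the sham hearts, and 3 of the 5 fell. The summed signal of 5 fibroblast markers (Pdgfra, Dcn, Col1a1, Col3a1 and Lum) was 144432 to 186450 against 77928 to 126603, and 3 of the 5 rose. Those 3, Col1a1, Col3a1 and Lum, are matrix genes described again below, whereas Pdgfra (0.42) and Dcn (0.17) were not called. For endothelium the sums of 4 markers overlapped, at 11245 to 11868 against 9701 to 12209, and those of 3 red cell markers did too, at 48291 to 66302 against 49193 to 69288. Of the macrophage markers Cd68 and Csf1r the sum was 6941 to 9679 against 3116 to 5174. No adipocyte, skeletal muscle or nerve marker of the defining sets was bright enough to be tested. Sham replicate 82 was the sham array least like the IR arrays: its mean correlation with them was 0.916, against 0.948 and 0.946 for replicates 80 and 81. Within the sham group it differed little, with a mean correlation of 0.957 with the other sham arrays, against 0.962 and 0.962. Which of the sham arrays is the unusual one was not tested. The excess of the 3′ beta-actin probe set over its 5′ one on the log2 scale, a measure of RNA integrity, was 0.11 to 0.23 on the IR and 0.39 to 0.83 on the sham arrays (exact two-sided permutation p = 0.1, the smallest that 3 against 3 allows); its part in the results was not tested. The same measure overlapped for GAPDH, at 0.28 to 0.38 against 0.31 to 0.44 (p = 0.2 in the same exact test), and for hexokinase, at 0.71 to 1.00 against 0.76 to 1.21 (exact p = 0.6).

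Limma called 655 of the 10527 probe sets higher (6.22%) and 615 lower (5.84%) in IR hearts at an adjusted p under 0.05; 51.6% of the calls were higher, and 37.9% (474 higher, 777 lower) when arrays were centred on their medians. By gene, 494 of 7720 rose (6.40%) and 507 fell (6.57%), while the median change over all genes was 0.008. The directions differed in size: 111 of the genes that rose were at least 2-fold higher, whereas 14 of those that fell were at least 2-fold lower. For 2586 genes (33.5%) the signals of the IR and sham groups did not overlap. The number of calls rests on single arrays. It was 121 higher and 54 lower without sham replicate 82, 278 and 196 without IR replicate 44, and 263 and 239 without IR replicate 47. The median size of change of the 1001 genes called went from 0.621 to 0.540 without replicate 82. All of them kept the sign of their change, but this was nearly fixed in advance. For 1243 of the 1270 called probe sets the IR and sham arrays did not overlap, so leaving out a sham array could not change the sign. In every one of the 12 fits that left out an array, 133 genes were called, 86 higher and 47 lower; these are described below as called in every fit.

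**Figure D1:**
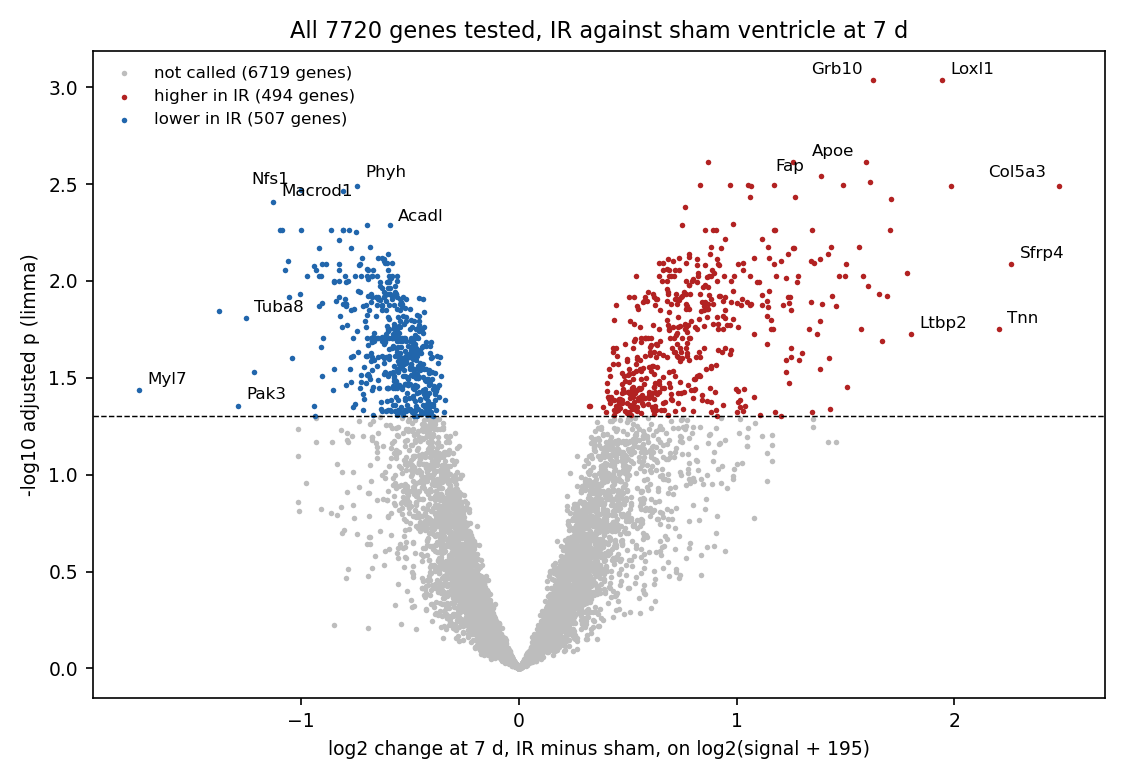
Each point is 1 of the 7720 genes, at its log2 change in IR against sham ventricle at 7 d (x axis) and the negative log10 of its adjusted p from limma (y axis); the dashed line marks 0.05. The 494 red genes spread to changes above 2, whereas the 507 blue genes, lower in IR, lie mostly between 0 and -1.

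Genes of the scar's extracellular matrix made up most of the largest increases. Fibrillar collagens, the enzymes that process and crosslink them, the microfibril proteins that elastin is built on and the matricellular proteins of healing wounds rose, in each list far above the 6.40% of all genes, and no member of these lists fell. Leaving out sham replicate 82 cut the counts, and the medians of the 4 lists were then 0.73, 0.56, 0.65 and 0.90. Below, the counts in brackets are those without IR replicate 44, without IR replicate 47 and without sham replicate 82. Each list count stands against the shares of all genes, 6.40% higher and 6.57% lower.

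Of 18 collagen genes tested 14 rose (6, 7 and 3), with a median change of 0.92. Col5a3, a chain of the minor fibrillar collagen V, had signals of 1554, 1818 and 909.9 in the IR hearts and 147.1, 67.8 and 53.9 in the sham hearts. All sham values lay under the added 195, so that its fold of 5.58 (log2 change 2.48, SE 0.36, limma adjusted p = 0.00323) depends on that offset. On the 2 d arrays it read 53.6 to 460.7, so it passed the brightness filter through the IR arrays. The adjusted p does not allow for this. Its partner Col5a2 read 14746, 12687 and 11167 against 6114, 4481 and 1953, a 3.26-fold rise. The main scar collagens were abundant in both groups: Col1a1 read 54500, 54916 and 38432 against 29243, 29766 and 9642 (2.38-fold, adjusted p = 0.0248), with replicate 82 far below the other sham hearts; its other probe set gave 1.46 and passed. Col3a1 rose less, 1.67-fold. The 3 chains of the beaded-filament collagen VI rose together, Col6a1 by 1.26 (SE 0.16), Col6a2 by 1.25 (SE 0.28) and Col6a3 by 1.10 (SE 0.22). The basement membrane chains Col4a1 and Col4a2 rose by 0.71 (SE 0.18) and 0.49 (SE 0.15). Col8a2, a short-chain collagen, was called at 1.33 (SE 0.32), but IR replicate 47, at 646.3, lay below sham replicate 80, at 706.7. Uncalled were Col8a1 (0.93) and Col12a1 (0.58).

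Of 19 genes of collagen processing 13 rose (6, 7 and 4; 8 without sham replicate 80 or after median centring), with a median of 0.62. They covered the successive steps of the pathway. Within the endoplasmic reticulum, P4ha2, a subunit of prolyl 4-hydroxylase, rose by 0.71 (SE 0.14), although another of its probe sets gave -0.27 and did not pass; Serpinh1, the collagen chaperone HSP47, rose by 0.91 (SE 0.15) and Fkbp10, a prolyl isomerase, by 0.88 (SE 0.27). After secretion, Bmp1 removes the C-propeptide and Pcolce enhances that cut; Bmp1 rose by 0.70 (SE 0.15) and Pcolce by 1.26 (SE 0.22). The crosslinking oxidases came last and rose most. Loxl1 read 7567, 6847 and 8556 against 2511, 1548 and 1589, a 3.85-fold rise with the smallest adjusted p of all genes, shared with Grb10 (0.00092). Lox read 7660, 6816 and 4715 against 2875, 2823 and 844 (3.04-fold, adjusted p = 0.0107); its other probe set gave 1.01 and did not pass. Loxl1, Lox, Pcolce and Serpinh1 were called in every fit.

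Of 16 genes of elastic fibres and fibronectin 8 rose (8, 5 and 4), with a median of 0.92. Fbn1, the main microfibril protein fibrillin-1, read 10431, 9659 and 12570 against 6537, 4368 and 1853 (2.77-fold), and Mfap5, which binds it, rose 2.70-fold. Ltbp2, a microfibril protein of the latent TGF-beta binding family, read 975.8, 723.8 and 2404 against 427.6, 156.7 and 106.6 (3.48-fold, SE 0.43 on the log2 scale), with IR replicate 48 more than the others. Elastin itself, Eln, rose 1.98-fold. Fn1, fibronectin, did not pass (1.01, SE 0.33, adjusted p = 0.0612).

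Of 11 matricellular genes, whose products sit in the matrix and signal to cells, 7 rose (5, 7 and 4), with the highest median of these lists, 1.17. Tnn, tenascin-N, had the third largest increase (4.61-fold) and a wide spread (SE 0.53), with 4708, 1219 and 991.6 against 872.8, 112.4 and 61. It read 41.6 to 143.3 on the 2 d arrays, so it too needed the IR arrays to pass the brightness filter. Its relative Tnc read 3144, 2656 and 2186 against 1612, 390.5 and 332.6. For both tenascins sham replicate 80 was the high sham array, and the groups did not overlap. Ccn5, a secreted CCN protein, read 2841, 2909 and 3407 against 1403, 819.7 and 405.1 (3.27-fold). Postn, periostin, read 29201, 22747 and 20564 against 11856, 13655 and 4520 (2.61-fold), and Sparc, a collagen-binding protein, 35528, 37184 and 27900 against 19346, 16382 and 12371 (2.10-fold). Tgfbi (0.90), Spp1 (0.84) and Ccn2 (0.74) did not pass.

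Of the small leucine-rich proteoglycans, which coat collagen fibrils, a smaller share rose than in the matrix lists above. It was 2 of 11 (2, 1 and 1), Prelp by 0.88 (SE 0.15) and Lum by 0.72 (SE 0.19). Decorin, Dcn, one of the brightest transcripts, read 39178, 43280 and 37128 against 32866, 38353 and 35238 (0.17, SE 0.10, adjusted p = 0.286), and Bgn, biglycan, gave 0.34 with overlapping arrays. In the basement membrane list 2 of 10 rose (0, 1 and 0; 1 without sham replicate 80 or 81), Nid1 by 0.71 and Lama4 by 0.49; another probe set of Nid1 gave 0.10. Among 16 integrins and other matrix receptors 3 rose (2, 2 and 2) and 2 fell (0, 1 and 0). The syndecans Sdc1 and Sdc2, heparan sulphate carriers of the cell surface, rose by 1.08 (SE 0.19) and 0.68 (SE 0.14), as did Cd44, the hyaluronan receptor, by 0.85 (SE 0.21). Itga7, the laminin receptor subunit of striated muscle, fell by 0.63 (SE 0.14), and Sdc3 fell by 0.67 (SE 0.19) on one probe set, with 0.21 on another.

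Of 22 matrix proteases and inhibitors 10 rose (7, 7 and 6), with a median of 0.67. Fap, the serine protease that marks activated fibroblasts, read 2266, 2466 and 2832 against 1214, 729.6 and 651.2 (2.62-fold, adjusted p = 0.00286), without overlap and in every fit. Ctsk, the collagen-cleaving cathepsin K, rose 2.68-fold, from 1763, 1179 and 685.2 to 4267, 2744 and 3274. The gelatinase Mmp2 and its membrane-bound activator Mmp14 rose 2.35-fold and 2.63-fold, together with Timp2 (1.72-fold), the inhibitor that takes part in that activation. Another probe set of Mmp2 gave -0.09. Of the other inhibitors, Timp1 overlapped between the groups, at 18524, 14626 and 7041 against 12380, 11656 and 2704 (0.74, SE 0.47).

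**Figure D2:**
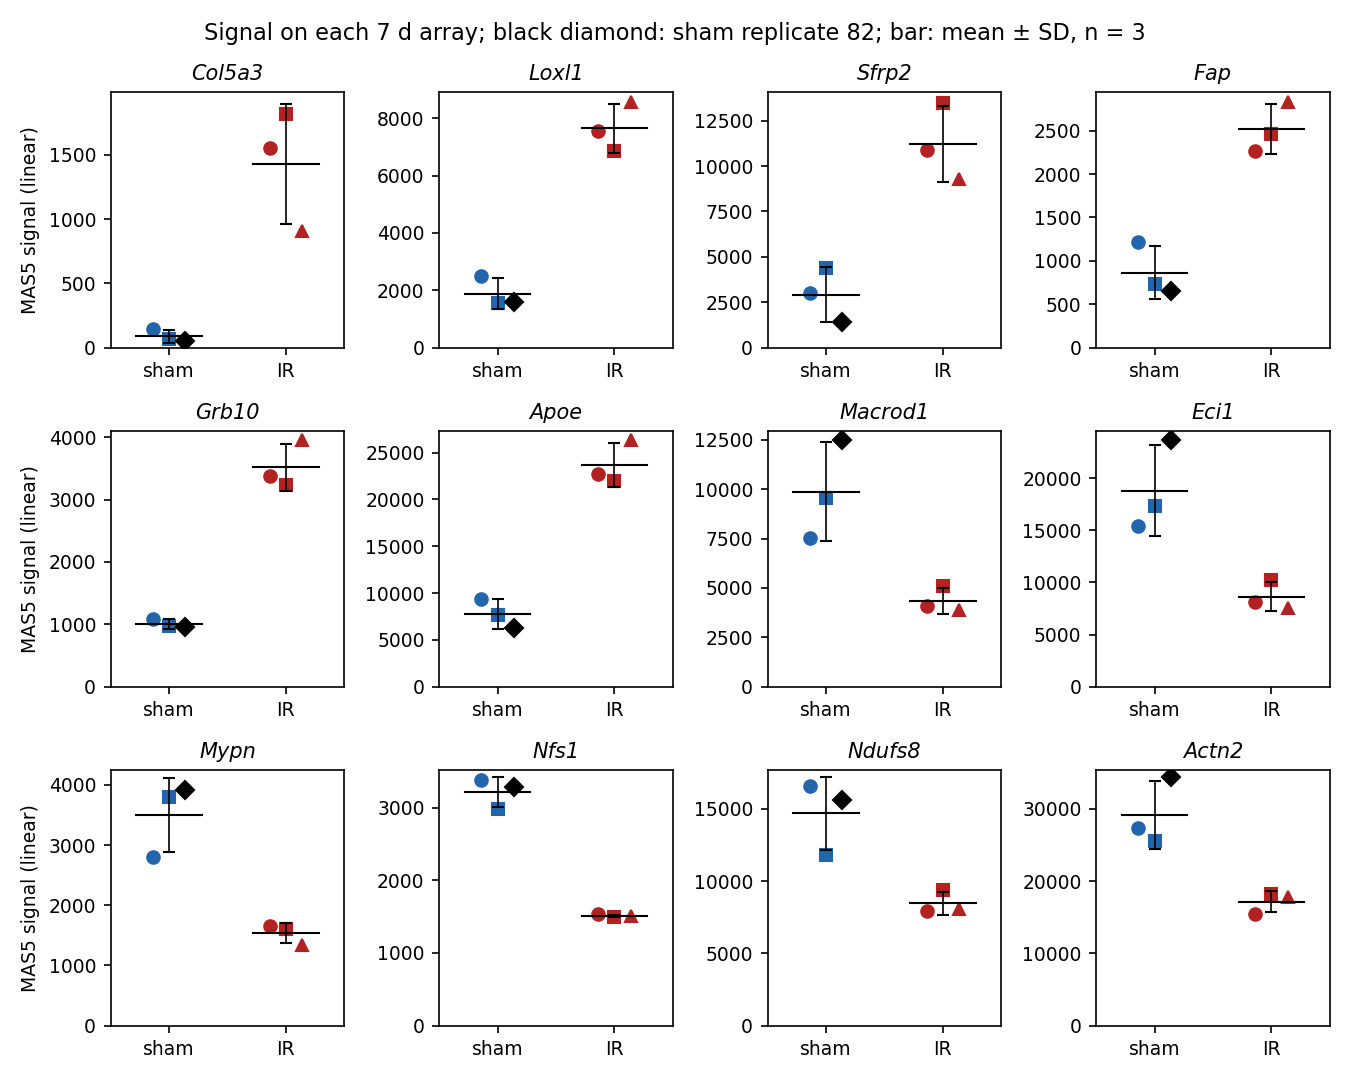
Linear signal on each of the 6 arrays of 7 d for 6 genes that rose and 6 that fell, with the mean and SD of each group (n = 3); circles, squares, triangles and diamonds are single rats, and the black diamond is sham replicate 82. In all 12 panels the IR and sham points do not overlap; Nfs1 and Grb10 have tight groups, whereas replicate 82 is the highest sham array for Macrod1, Eci1, Mypn and Actn2.

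Genes that signal to fibroblasts moved in smaller numbers. Of 18 TGF-beta ligands, receptors and binding proteins 3 rose (3, 3 and 2; median 0.21), namely Fstl1, a secreted follistatin-like protein that read 11400, 16178 and 16461 against 8134, 5450 and 3881 (2.55-fold), the ligand Tgfb3 (0.81, SE 0.22, with overlapping arrays) and the adaptor Tgfb1i1 (0.72, SE 0.14). Tgfb1 did not pass (0.56, SE 0.26, adjusted p = 0.177). In the BMP pathway 4 of 16 rose (2, 2 and 1) and 1 fell (2, 1 and 0), the latter near the 6.57% of all genes. Besides Bmp1, the mediator Smad1 rose by 0.60 (SE 0.16), the target Id3 by 0.82 (SE 0.15) and the antagonist Nbl1 by 1.08 (SE 0.26). Id4 fell, from 643.8, 645.5 and 703.5 in the sham to 274.3, 301.5 and 320.6 in the IR hearts, without overlap. The Id genes, both inhibitors of helix-loop-helix factors, thus changed in opposite directions.

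Secreted Wnt modulators held 2 of the 4 largest increases. Sfrp2 read 10885, 13476 and 9285 against 3002, 4375 and 1389 (3.96-fold, adjusted p = 0.00323). Sfrp4 read 1642, 5945 and 2135 against 552.2, 497.5 and 265 (4.80-fold, adjusted p = 0.00816), with IR replicate 47 high; its other probe set gave -0.32 and did not pass. With the receptor Fzd2 (0.81, SE 0.23) they were the 3 of 13 genes of this list that rose (3, 2 and 2). Of 13 IGF genes 4 rose (1, 1 and 0; 2 without sham replicate 80), all of them binding proteins or a protease of binding proteins: Igfbp6 by 1.24 (SE 0.27), Igfbp4, with overlapping arrays, by 1.03 (SE 0.32), Igfbp7 by 0.45 (SE 0.11) and Htra1 by 0.69 (SE 0.19). Igf1 (0.74) and its receptor gene Igf1r (0.78) did not pass, although another probe set of Igf1 did (1.09, adjusted p = 0.0173). Grb10, an adaptor that binds the insulin and IGF receptors and damps them, had tight groups far apart: 3376, 3233 and 3949 against 1089, 965 and 956.1 (3.09-fold). Among 25 angiogenic and other growth factors and receptors 2 rose (1, 1 and 1) and 1 fell (1, 1 and 0). These counts lay near the shares of all genes, 6.40% higher and 6.57% lower. Ptn, the heparin-binding growth factor pleiotrophin, rose 2.61-fold from 2280, 1410 and 1209 to 4164, 4457 and 4698, and Fgfr1 rose by 0.45 (another probe set gave 0.23 and did not pass). Vegfb fell, from 9372, 7904 and 9210 to 4142, 4883 and 5755 (1.77-fold lower, adjusted p = 0.00999).

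Genes of the secretory pathway, through which matrix proteins leave the cell, rose in part: 12 of 62 genes of translocation, folding and early transport (5, 5 and 2; 19 without 2d-IR replicate 69), with a median of 0.27 and none lower. Tmed3, a cargo receptor of COPII vesicles, read 3981, 3226 and 3101 against 1250, 1051 and 985.1 (2.81-fold) and was called in every fit, as was the vesicle fusion protein Sec22b (0.92, SE 0.17). The KDEL receptors Kdelr2 and Kdelr3, which return chaperones to the endoplasmic reticulum, rose by 0.75 (SE 0.16) and 0.84 (SE 0.25), and Creb3l1, a membrane-bound transcription factor that turns on collagen and secretory genes in fibroblasts and osteoblasts, rose by 0.75 (SE 0.22). Of the translocon, Ssr1 rose by 0.61, whereas Sec61b (1.05, SE 0.34) and Sec61a1 (0.76, SE 0.25) did not pass.

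Cell type markers moved with these genes. Of 20 fibroblast markers 12 rose (7, 5 and 3; median 0.81), some of them matrix genes counted above; among the others was Cd248, endosialin, with 3010, 5470 and 2555 against 1660, 1718 and 795.6. The general fibroblast marker Pdgfra did not pass (0.42, SE 0.21). On sham replicate 82 the mean of the list lay 0.39 under the sham mean (-0.39), against 0.24 and 0.15 on replicates 80 and 81 and 0.74 to 0.98 on the IR arrays. Of 22 contractile genes of smooth muscle, pericytes and myofibroblasts 4 rose (1, 3 and 0; 9 without sham replicate 80, 1 without sham replicate 81) and 1 fell. Acta2, the actin of myofibroblasts and smooth muscle, read 10751, 8338 and 8337 against 7151, 4282 and 3476 (1.88-fold), and Rgs5, a pericyte marker, rose 1.69-fold, while Tagln (1.05, SE 0.36) overlapped. Of 23 endothelial markers 4 rose (2, 2 and 1; median 0.19), led by Mcam (0.91, SE 0.18) and the adhesion receptor Vcam1 (0.83, SE 0.23); none of the 4 defining endothelial markers was called.

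Macrophage genes were high at 7 d. This was not particular to the day: at 2 d their list had a median of 0.95 and 13 calls, all higher. The counts that follow are for 7 d. Of 26 macrophage and monocyte markers 16 rose (8, 8 and 1; median 0.86) and none fell. Apoe, the apolipoprotein that lipid-laden macrophages secrete, read 22703, 21999 and 26310 against 9412, 7704 and 6252 (3.02-fold, adjusted p = 0.00244) and was the 1 marker of this list called in every fit. Gpnmb, a phagocyte glycoprotein, read 8402, 6002 and 13751 against 4199, 2928 and 1536, and Csf1r, the receptor that macrophages need to survive, 4270, 5451 and 4034 against 3154, 2924 and 2128. The list mean lay at -0.46 on sham replicate 82, 0.25 and 0.21 on the other sham arrays and 0.69 to 0.99 on the IR arrays. Of 34 genes of the lysosome, cathepsins and lipid uptake 13 rose (6, 8 and 4), Apoe among them. The cathepsins Ctss and Ctsz rose by 1.34 (SE 0.29) and 1.14 (SE 0.26), and Gusb, beta-glucuronidase, by 0.83 (SE 0.12). In this list 1 member fell, the secreted lipase Lpl.

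The other immune lists were uneven: complement and coagulation genes lay above the 6.40% of all genes that rose, and the chemokine and MHC class II lists near it. Ccl6, a chemokine of macrophages, rose 2.96-fold from 1990, 1819 and 1615 to 6136, 8477 and 3550, and it and Tnfrsf1a (0.77) were the 2 of 37 chemokine, cytokine and receptor genes that rose (1, 2 and 1; 4 without sham replicate 80, 1 without IR replicate 48). S100a8, a neutrophil protein, was called (1.51, SE 0.43), but IR replicate 48, at 2279, lay below sham replicate 81, at 2733. In the complement and coagulation list 5 of 17 rose (3, 1 and 0), the C1q chains C1qa, C1qb and C1qc with Cfd and Pros1. Among 8 lymphocyte and mast cell markers Cd4, which rat macrophages also carry, rose by 0.75 (SE 0.19). Of 15 genes of MHC class II and antigen presentation 1 rose (0, 0 and 0), RT1-DMa (0.95, SE 0.24). Of 21 interferon-induced genes 2 rose (0, 0 and 0), Parp9 (0.70) and Irf1 (0.48).

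Part of the actin cytoskeleton genes rose, and almost no cell cycle gene passed. The actin list had a median of 0.49 at 2 d, with 13 genes called, all higher. The counts that follow are for 7 d. Of 52 actin cytoskeleton genes 16 rose (3, 5 and 0; 10 without sham replicate 81), with a median of 0.43; examples are Arpc1b of the branching complex (0.81, SE 0.19), the non-muscle myosin Myh10 (0.70, SE 0.14) and Vim, vimentin, at 33889, 36267 and 30707 against 23730, 21091 and 16146. Of 9 tubulin isotypes 3 rose (1, 1 and 0; 1 without sham replicate 80) and 1 fell (0, 0 and 0). Tubb5 rose by 0.57 (SE 0.12) and Tubb6 by 0.94 (SE 0.28), while Tuba8, an isotype of muscle, fell from 4556, 8002 and 9499 to 2680, 2631 and 3224 (2.39-fold lower). S100a11 (1.03, SE 0.20), S100a6 (0.97) and S100a4 (0.88) were among the 5 of 11 S100 genes that rose (2, 1 and 1), and Anxa1, an annexin with anti-inflammatory actions, rose 2.26-fold. Of 35 cell cycle genes 1 was called (1, 0 and 0, and 4 without sham replicate 81), Cks2 (1.11, SE 0.34), with overlapping arrays. The background was 6.40% of all genes higher.

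**Figure D3:**
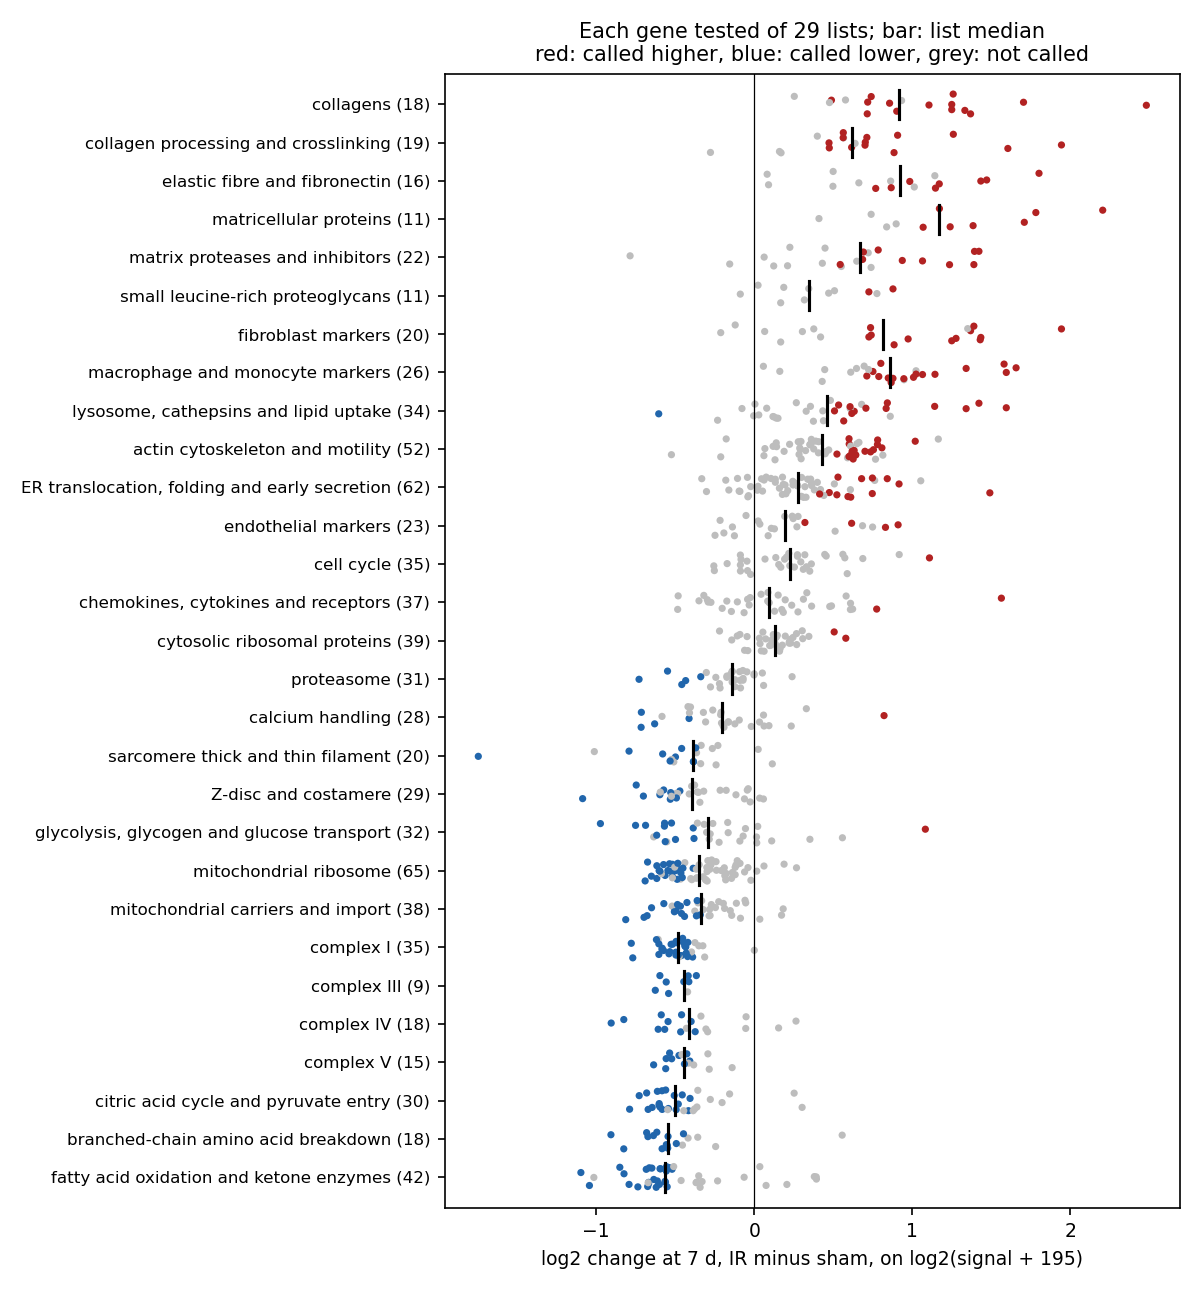
Each point is a gene tested, at its log2 change in IR against sham ventricle at 7 d; rows are lists with the number of genes tested in brackets, the black bar is the list's median, red and blue points were called higher and lower, and grey ones were not called. Matrix, fibroblast and macrophage lists have medians from 0.34 to 1.17, and mitochondrial lists from -0.56 to -0.34, with narrower spread.

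Genes of mitochondrial energy supply fell, by small and similar amounts. Every respiratory complex, the citric acid cycle, the oxidation of fatty acids and of branched-chain amino acids, and the mitochondrial ribosome held called members, none of them higher, with list medians between -0.56 and -0.35; the background was 6.57% of genes lower. Without sham replicate 82 the medians lay between -0.49 and -0.29. At 2 d the medians of these lists were negative too, between -0.36 and -0.23, with few genes called.

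Of 35 complex I genes, which encode the NADH dehydrogenase, 27 fell (9, 14 and 3), with a median of -0.48. Ndufs8, an iron-sulphur subunit, read 7941, 9393 and 8076 in the IR and 16603, 11822 and 15614 in the sham hearts (1.70-fold lower, adjusted p = 0.0068). Ndufv3 read 14680, 15587 and 14441 against 22345, 24166 and 31368, and Ndufs1, the largest subunit, 9466, 10079 and 10383 against 14190, 14384 and 17945; these 3 were called in every fit. In complex II 3 of 6 fell (0, 1 and 0; 1 without IR replicate 48 and 1 without sham replicate 81). In complex III 8 of 9 fell (4, 5 and 1), with Uqcrc1, a core subunit, at 24376, 28188 and 25936 against 37271, 40967 and 43264 (1.54-fold lower). The complex III assembly factor Uqcc1, outside these lists, fell 1.75-fold. In complex IV 10 of 18 fell (3, 6 and 1), with Cox5a at 1686, 1100 and 1220 against 2461, 2439 and 2546, and Cox7a1, a muscle isoform, at 2741, 4193 and 3982 against 5341, 7749 and 7846. In complex V, the ATP synthase, 9 of 15 fell (3, 5 and 0; 5 without IR replicate 48 and 5 without sham replicate 81), with Atp5po at 26676, 23643 and 23626 against 34199, 35781 and 46174.

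Promoter sequences of members of this fall are shown because NRF1 and GABP, activators of nuclear genes for mitochondrial proteins, bind short motifs near many of their starts, and 2 promoters of matrix genes that rose are shown beside them. They are RefSeq sequence of assembly GRCr8, from the bases just before the annotated start, on the gene's strand; capitals mark the motif found there on either strand. The motif letters are GCGCATGCG for NRF1, CCGGAAGT for GABP, TATAAA for the TATA box and TGANTCA for AP-1. The windows are chr8:118468123-118468222 (plus strand) for Uqcrc1, chr11:44657484-44657583 (minus) for Atp5po, chr9:46417737-46417836 (plus) for Cox5b, chr10:38089979-38090078 (minus) for Uqcrq, chr1:205408274-205408373 (minus) for Cox8b, chr2:140677961-140678060 (plus) for Postn and chr20:11905570-11905689 (plus) for Col6a1.
Uqcrc1, NRF1 motif: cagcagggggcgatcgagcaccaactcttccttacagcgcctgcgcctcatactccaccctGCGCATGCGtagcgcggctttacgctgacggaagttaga
Atp5po, NRF1 motif: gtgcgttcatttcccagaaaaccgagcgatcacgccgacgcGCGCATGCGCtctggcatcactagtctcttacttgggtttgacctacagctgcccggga
Cox5b, GABP motif: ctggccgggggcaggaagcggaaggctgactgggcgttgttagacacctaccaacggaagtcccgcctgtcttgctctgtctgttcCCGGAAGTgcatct
Uqcrq, GABP motif: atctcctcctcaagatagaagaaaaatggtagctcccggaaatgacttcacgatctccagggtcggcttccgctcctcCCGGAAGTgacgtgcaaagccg
Cox8b, TATA box: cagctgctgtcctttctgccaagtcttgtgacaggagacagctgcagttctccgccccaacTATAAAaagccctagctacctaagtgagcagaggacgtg
Postn, TATA box: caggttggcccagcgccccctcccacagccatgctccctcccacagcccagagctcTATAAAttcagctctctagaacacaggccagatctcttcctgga
Col6a1, AP-1 motif: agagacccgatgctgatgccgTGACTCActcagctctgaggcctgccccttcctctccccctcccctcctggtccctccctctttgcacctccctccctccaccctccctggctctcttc

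The NRF1 and GABP motifs were not more frequent among genes that fell than among all genes tested. Over the 250 bases before each start, 6444 of the 7720 genes tested had a sequence. The NRF1 motif stood in 1.93% of the 467 windows of genes that fell, 2.67% of the 412 of genes that rose and 3.03% of the 7090 of all genes tested; the GABP motif stood in 5.57%, 4.37% and 6.60%. In the 75 windows of respiratory chain genes the shares were 6.67% and 12%, whichever way the genes changed. The TATA box was in 8.78% of windows of genes that fell and 7.52% of those that rose, against 6.98% of all tested, and the AP-1 motif in 5.35%, 4.85% and 4.53%. CCAAT on either strand was in 33.4%, 32.5% and 35.4%, and TNAAGGTCA, the motif of the oestrogen-related receptors, in 2, 1 and 33 windows.

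Enzymes that oxidise fatty acids, pyruvate and branched-chain amino acids were prominent among the genes that fell. Of 42 genes of fatty acid and ketone oxidation 25 fell (10, 20 and 3; 16 without IR replicate 48), with the lowest median, -0.56. Eci1, which moves double bonds so that unsaturated fats can be oxidised, read 8133, 10191 and 7512 against 15368, 17369 and 23694 (2.14-fold lower), and the long-chain dehydrogenase Acadl 23198, 25125 and 23093 against 34729, 35124 and 38164. Etfb and Etfdh, which pass electrons from these dehydrogenases to coenzyme Q, fell by 0.82 (SE 0.16) and 0.85 (SE 0.17). Phyh, which starts the oxidation of branched fats in peroxisomes, was outside the list and had the smallest adjusted p of all genes that fell (0.74 lower, SE 0.11, adjusted p = 0.00323): 18246, 19470 and 19204 against 28641, 31968 and 35388. Lipoprotein lipase, Lpl, which frees fatty acids from blood lipids, fell 1.52-fold in every fit, and Cd36, a fatty acid transporter, did not pass (-0.23, SE 0.15).

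Of 30 genes of pyruvate entry and the citric acid cycle 19 fell (9, 11 and 5), among them Suclg1, at 11119, 11283 and 10363 against 15524, 17301 and 18914, and Ogdh, at 11544, 14464 and 14791 against 20454, 19613 and 28466. Both phosphatases that switch pyruvate dehydrogenase on fell, Pdp1 by 0.67 (SE 0.13) and Pdp2 by 0.68 (SE 0.14), as did the kinase Pdk2, which switches it off, by 0.61 (SE 0.15); Pdk4 (-0.45) and Pdk1 (-0.55) did not pass. Other probe sets differed: that of Pdk2 gave 0.03, and that of Pdk1 passed (-0.53, adjusted p = 0.0111). Of 18 genes of branched-chain amino acid breakdown 13 fell (4, 7 and 1), with a median of -0.55. Dbt, the core of the branched-chain ketoacid dehydrogenase, fell 1.88-fold, from 1227, 2102 and 2610 to 922.1, 782 and 1078, and its phosphatase Ppm1k, with tight groups, from 2999, 2869 and 3300 to 1904, 1892 and 1877. Hibch, of valine breakdown, fell 1.77-fold and Ivd, of leucine breakdown, 1.53-fold.

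A minority of the genes that build and supply mitochondria fell, and none of them was called without sham replicate 82. Of 65 mitochondrial ribosomal genes 22 fell (3, 4 and 0; 14 without sham replicate 81), with a median of -0.35; Mrpl35 had -0.69 (SE 0.14). Of 38 carriers and import factors 16 fell (3, 5 and 0; 8 without IR replicate 48 and 9 without sham replicate 81), including Timm17a of the inner membrane translocase by 0.70 (SE 0.14). Of 21 genes of coenzyme Q synthesis and mitochondrial dynamics 9 fell (1, 5 and 0; 3 without IR replicate 48), among which Coq9 fell by 0.63 (SE 0.13) and Coq8a fell by 0.70 (SE 0.19).

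**Figure D4:**
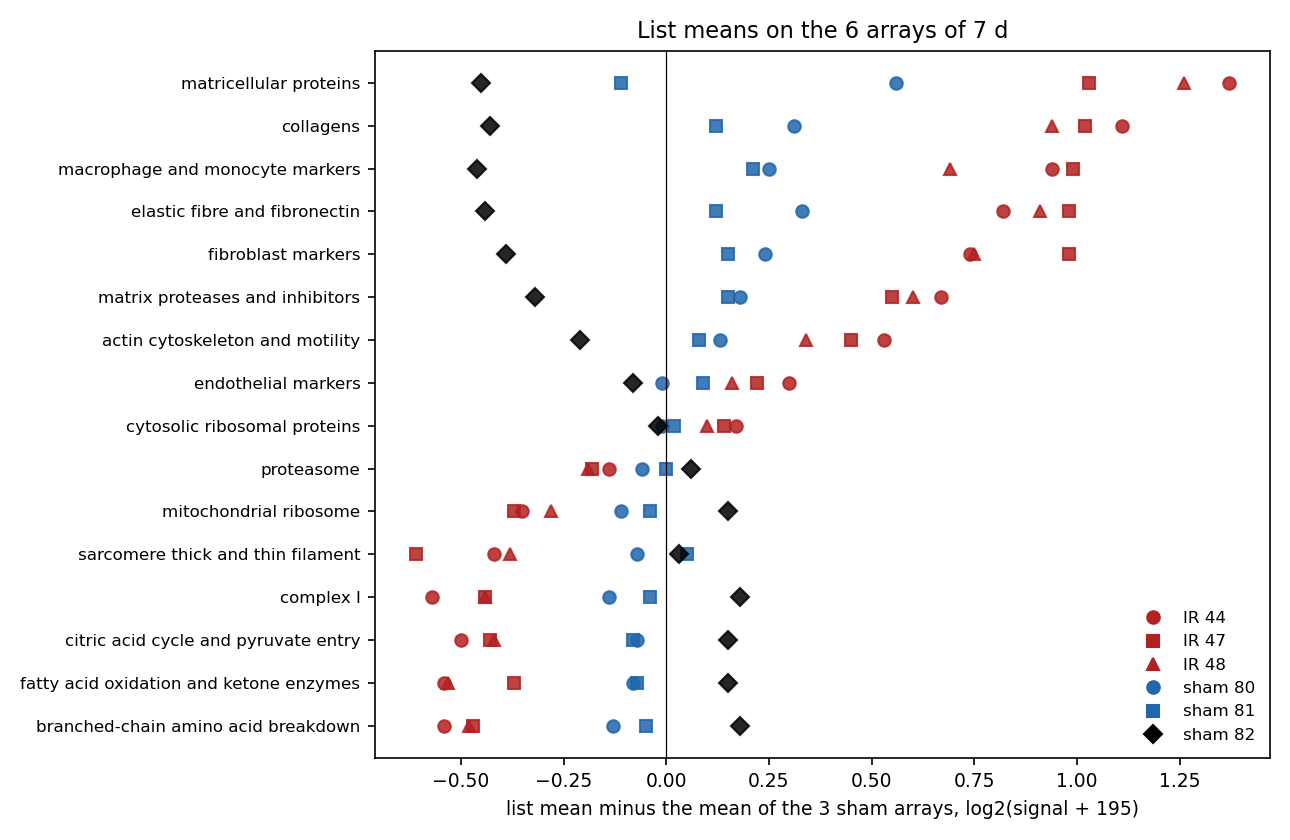
Mean log2(signal + 195) of each list's genes on each array of 7 d, minus the mean of the 3 sham arrays; red symbols are IR rats, blue symbols sham replicates 80 and 81, and the black diamond sham replicate 82. In the matrix, fibroblast and macrophage lists plotted, replicate 82 lies on the far side of the other sham arrays from the IR arrays, at -0.46 to -0.32, and in the mitochondrial lists plotted at 0.15 to 0.18.

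Glycolysis and high-energy phosphate transfer showed a split between isoforms. Of 32 genes of glycolysis, glycogen and glucose transport 11 fell (3, 6 and 0; 6 without IR replicate 48 and 5 without sham replicate 81) and 1 rose (0, 0 and 0; 0 without IR replicate 48). The gene that rose was Pygl, the liver form of glycogen phosphorylase (1.08, SE 0.32), whose muscle form Pygm fell (-0.62, SE 0.15) with overlapping arrays. For 20 pairs with both genes tested, a gene expressed in heart muscle, here the muscle form, was set beside another form. The gap between their changes was taken on each array. The other form was not always the more widely expressed one, nor absent from muscle. Such pairs were Myh6 and Myh7, Atp2a2 and Atp2a3, Ldhb and Ldha, and Fhl2 and Fhl1. Of the muscle forms 16 fell, with a median change of -0.56, and only Actn2 of them was called in every fit. Without sham replicate 82 the calls of Cox6a2, Cox8b, Ckm, Pgam2, Ldhb, Pygm, Prkaa2, Atp2a2, Myh6 and Tpm1 were lost. Of the other forms 2 fell (Pygb and Myh7) and 1 rose (Tpm4), with a median of -0.04. Their calls were lost without sham replicate 82 as well. The gap was negative in 19 of 20 pairs, with a median of -0.47, and lay lower in all IR than in all sham arrays for 12. Of single genes, 33.5% had IR and sham arrays that did not overlap, in either direction. No such share was taken for gaps of other gene pairs. Without sham replicate 82 the gap was negative in 19 pairs again, with a median of -0.44. For the 12 pairs whose gap lay lower in all IR arrays, that sign could not change. For each pair the exact permutation p cannot go below 0.1.

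The widest gap was that of the alpha actinins, -1.51. Actn2, of the sarcomere's Z-disc, read 15495, 18222 and 17781 against 27360, 25541 and 34429, and Actn1, of the non-muscle cytoskeleton, 4505, 3540 and 2998 against 3006, 2101 and 1353. For the tropomyosins the gap was -1.15, with Tpm1 at -0.37 (SE 0.10) and Tpm4 at 0.78 (SE 0.16), both called. Tpm1 differed between its probe sets: 1 other gave 1.11 and passed in the opposite direction (adjusted p = 0.00946), and the gene is known for its many splice forms. Of 22 genes of creatine kinases and energy transfer 7 fell (2, 2 and 1; 4 without sham replicate 81). The gap of the creatine kinases was -1.02, since Ckm fell by 0.60 (SE 0.12) from 35402, 41846 and 46831 to 23773, 28099 and 29470, and Ckb gave 0.42 without passing. For phosphoglycerate mutase it was -0.995: Pgam2 fell from 19510, 19165 and 29394 to 9504, 12863 and 11577, and Pgam1 read 14212, 13292 and 14862 against 15334, 14393 and 12149. For the catalytic subunits of AMP-activated kinase, Prkaa2 and Prkaa1, it was -1.07.

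Subunits of cytochrome c oxidase behaved alike. Cox6a2 and Cox8b, the heart and muscle isoforms, fell by 0.46 (SE 0.11) and 0.57 (SE 0.17), and Cox6a1 and Cox8a, the ubiquitous ones, gave -0.05 each. The smallest gaps were those of the glycogen phosphorylases Pygm and Pygb (-0.05), the lactate dehydrogenases Ldhb and Ldha (-0.10) and the hexokinases Hk2 and Hk1, the 1 pair with a positive gap (0.24). The creatine transporter Slc6a8 fell from 9306, 9150 and 9465 to 5206, 6324 and 5546 in every fit, although its other probe set gave -0.10.

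**Figure D5:**
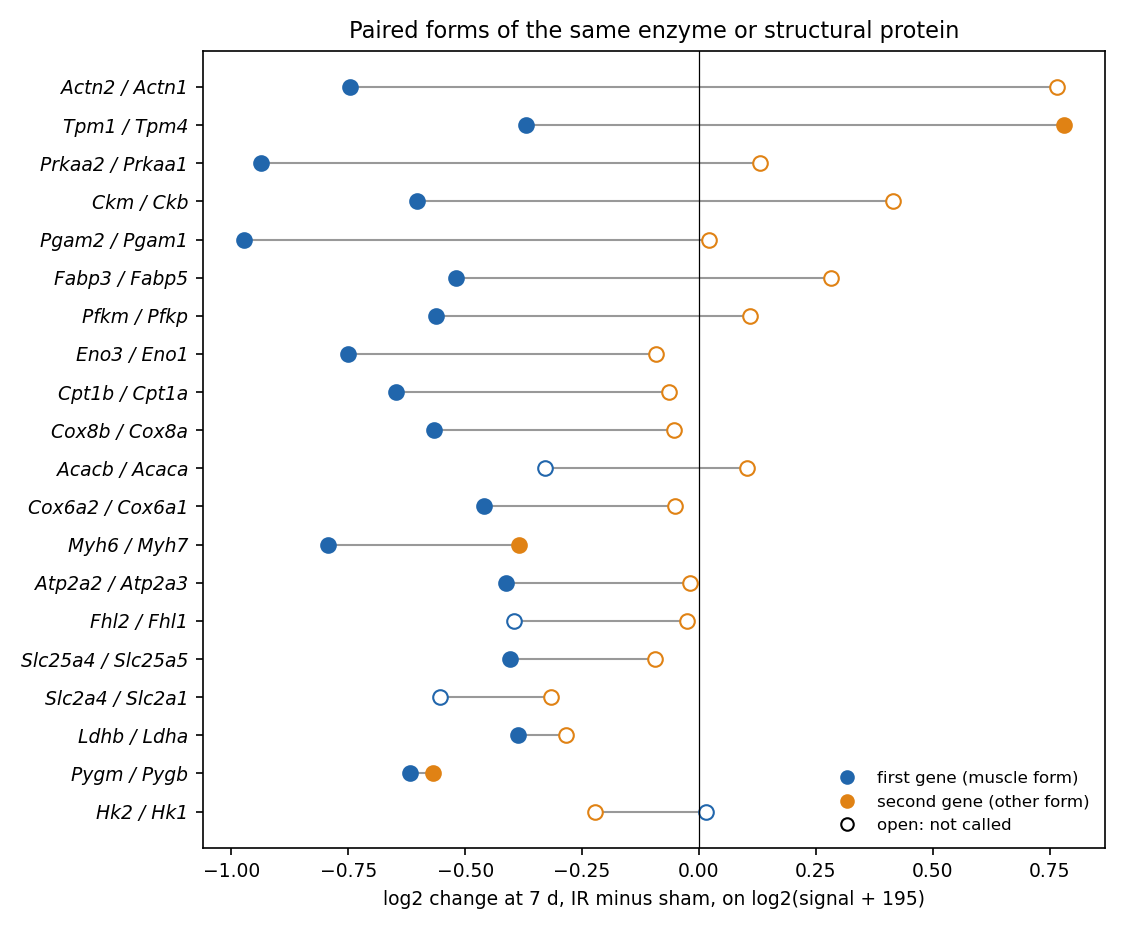
Log2 change at 7 d of the muscle form (blue) and the other form (orange) of 20 enzymes or structural proteins, joined by a line and sorted by the gap; filled points were called by limma and open ones were not. Blue points lie left of orange ones in 19 of 20 pairs, and the gap runs from -1.51 for the alpha actinins to 0.24 for the hexokinases.

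Part of the contractile and electrical genes of the cardiomyocyte fell, with lower medians for filament and Z-disc genes than for calcium handling (-0.20) and ion channels (-0.25). Of 20 thick and thin filament genes 9 fell (3, 4 and 0; median -0.39). The alpha myosin heavy chain Myh6 read 32701, 26231 and 22728 against 41437, 43888 and 56220 (1.73-fold lower), and the beta chain Myh7, the slow form that rises in many failing hearts, fell as well, from 70466, 64675 and 71564 to 45795, 54406 and 58575. Its other probe set did not pass (-0.48, limma adjusted p = 0.213). The call of Myh7 was lost without IR replicate 44 or 47, or sham replicate 80 or 82. It was also lost without 2d-IR replicate 76 or 2d-sham replicate 74. Tnnt2, cardiac troponin T, fell 1.41-fold. Of 29 Z-disc and costamere genes 9 fell (2, 4 and 2; median -0.40), led by Mypn, myopalladin, at 1653, 1610 and 1342 against 2800, 3790 and 3908. Outside the lists, Mylk3, the kinase that phosphorylates the ventricular regulatory light chain, fell 1.85-fold, and Dsp, the desmosome's desmoplakin, 1.60-fold, both in every fit.

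Among 28 calcium handling genes 4 fell (1, 0 and 0, and 7 after median centring) and 1 rose (1, 1 and 1). Of all genes 6.57% fell and 6.40% rose. The calcium pump Atp2a2 fell by 0.41 (SE 0.11), the luminal calcium binder Hrc by 0.72 (SE 0.16) and the channel subunit Cacnb2 by 0.63 (SE 0.16); 2 other probe sets of Atp2a2 gave -0.21 and 0.08, and 1 of Cacnb2 gave 0.10, none of which passed. Sri, sorcin, a calcium-binding protein of the ryanodine receptor, rose from 1339, 1222 and 1256 to 2182, 2692 and 2336 in every fit. Of 17 ion channel, pump and gap junction genes 5 fell (2, 2 and 2; 2 without sham replicate 81). Kcnk3, the background potassium channel TASK-1, had tight groups, 1255, 1261 and 1247 against 2649, 2534 and 2569, and was called in every fit; its other 2 probe sets gave -0.24 and -0.35 and did not pass. Kcnq1 and Scn4b, of the slow repolarising potassium current and the sodium channel, fell by 0.59 (SE 0.17) and 0.69 (SE 0.19). Among 18 adrenergic, angiotensin, endothelin and natriuretic receptor genes 1 fell (0, 0 and 0), Adra1b by 0.48. In the same list 1 rose (1, 1 and 0, and 3 without sham replicate 81), Ramp2 by 0.53. Its product turns the calcitonin receptor-like receptor into an adrenomedullin receptor. Both counts lay near the shares of all genes.

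Of 23 cardiac and metabolic transcription regulators 5 fell (1, 1 and 1; 2 without IR replicate 48 and 0 without sham replicate 81) and none rose: the cardiac factors Nkx2-5 (-0.67, SE 0.16) and Tbx5 (-0.63, SE 0.15), the nuclear receptors Esrra (-0.64, SE 0.19) and Rxrg (-0.56, SE 0.15), and Klf9 (-0.52, SE 0.14). No fetal or stress gene was called higher. Nppa read 25282, 22644 and 45583 against 38724, 37150 and 36674 and Nppb 15006, 21959 and 31095 against 32304, 29669 and 36482, neither called, and the 2 of 12 genes of that list that were called (1, 0 and 0; 1 without sham replicate 80), Myh7 and Myl7, were lower. Myl7, the atrial light chain, had the largest decrease of all called genes (3.36-fold) and overlapping arrays, 3150, 452.4 and 1061 against 3323, 9699 and 2756, with sham replicate 81 high. The other atrial light chain, Myl4, followed the same order of arrays within each group (2350, 496.5 and 1091 against 2344, 4792 and 1271) and did not pass.

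The largest decreases without overlap lay partly outside these lists. LOC100909739, a locus without a gene name in the files, was 2.60-fold lower and Pak3, a kinase of the cytoskeleton, 2.44-fold lower, both dim in IR hearts. Macrod1, a mitochondrial ADP-ribose hydrolase, read 4075, 5092 and 3875 against 7552, 9577 and 12509 (2.19-fold lower). Nfs1, the cysteine desulphurase that supplies sulphur for iron-sulphur clusters, had nearly equal values within groups, 1530, 1494 and 1504 against 3379, 2985 and 3284 (2.00-fold lower, adjusted p = 0.00339). Hipk2, a nuclear kinase, fell 2.10-fold and Cda, cytidine deaminase, 2.00-fold. Among the largest increases outside them were Crabp2, which binds retinoic acid, at 1123, 1891 and 767.3 against 322.5, 293.1 and 114.9, Crlf2, a cytokine receptor subunit (3.18-fold), and Olfml3, a secreted olfactomedin-like protein, at 5235, 5065 and 3052 against 1036, 1695 and 1194 (3.06-fold).

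Genes of protein synthesis, protein turnover and stress defence were called in both directions; of all genes 6.40% were higher and 6.57% lower. Of 39 cytosolic ribosomal protein genes Rpl3 (0.58, SE 0.12) and Rps3 (0.51, SE 0.11) rose, with a list median of 0.13; after quantile normalization the count was 16. Of 31 proteasome genes 5 fell (2, 2 and 0; 3 without IR replicate 48 and 3 without sham replicate 81; median -0.14), above that background. Of 33 antioxidant genes 3 rose (2, 2 and 1; 5 without sham replicate 80) and 4 fell (1, 3 and 0; 2 without IR replicate 48): the endoplasmic reticulum enzymes Prdx4 and Gpx7 rose by 0.88 (SE 0.19) and 0.80 (SE 0.16), while Sod1 and the mitochondrial Prdx3 fell by 0.58 (SE 0.13) and 0.49 (SE 0.13). Of 18 heat shock genes 2 fell (1, 0 and 0; 4 without IR replicate 48, 6 after median centring), Hspa4 and Hspb6, and of 12 clock genes 1 (0, 0 and 0; 0 without sham replicate 81), Bhlhe41. Of 4 lung genes tested none was called; Napsa, a protease of lung epithelium, read 983.8, 545.7 and 330.2 against 90.4, 163.6 and 37.8 without passing (1.42, SE 0.48, adjusted p = 0.0682). The surfactant gene Sftpc was high on 1 IR array, replicate 44, at 3195 against 501.4 and 457 on the others.

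The comparison with day 2 asked whether the effect of IR itself differed between the days. Limma called 1 of 10527 probe sets for the difference of the effects (0.00950%), that of Rpl37a, whose change was 0.24 and uncalled at 7 d and -1.30 at 2 d. Its signals were 39104, 52874 and 55717 on the 2d-sham arrays and 13025 to 20756 on all other arrays, so the call rests on the 2d-sham group. Of the 1001 genes called at 7 d, 923 (92.2%) had a change of the same sign at 2 d, against 5486 (71.1%) of all 7720 genes. At 2 d 202 of the 7720 genes were called (2.62%), and 85 genes were called on both days, 8.49% of those called at 7 d and 42.1% of those called at 2 d. The genes with the largest excess at 7 d were Tnn (2.20 at 7 d, -0.08 at 2 d), Col5a3 (2.48 and 0.30), Ltbp2 (1.80 and -0.37), Sfrp4 (2.26 and 0.12) and Ccn5 (1.71 and -0.03). The genes with the largest deficit were C10h16orf89, an uncharacterised open reading frame (-1.06 and 0.55), the proteasome subunit Psma1 (-0.73 and 0.49), the interleukin Il4 (-0.77 and 0.34), Myl7 (-1.75 and -0.67) and Fahd1, an oxaloacetate decarboxylase (-1.06 and -0.01). None of these differences passed; the smallest adjusted p among them was 0.151, for C10h16orf89. Against the 2d-sham in place of the 7d-sham arrays the changes of C10h16orf89 and Psma1 at 7 d were 0.10 and 0.08. Sham replicate 82 enters the changes at 7 d alone.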

How the data were processed

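Labelled ventricular RNA was hybridised to 1-colour Affymetrix arrays. The values are linear intensities, MAS5 signals deposited by the authors, and MAS5 is named in the submitters' processing notes; each array's mean trimmed by 2% at each end was 1500.4 to 1500.5, and array medians were 637.3 to 719.0. The array holds 15923 probe sets, of which the 57 controls were dropped. Another was tested if it lay above its array's 40th percentile on at least 3 of 12 arrays (10527). A gene bright in the 3 arrays of 1 group alone can enter the test through that group, and the adjusted p does not allow for this. Offset log2 values were fitted in limma 3.58.1 (R 4.3.3), with a mean for each of 4 groups, an intensity trend and Benjamini-Hochberg adjustment over all probe sets; "called" means an adjusted p under 0.05. The script was tested on simulated data. Genes were taken from probe sets with 1 symbol (12789), by the probe set of highest mean; 1036 genes had more than 1. Promoters are RefSeq's, build GRCr8.

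Members and lists were chosen with earlier results of these data known. Named genes were the 15 largest non-overlapping changes and 5 smallest p each way, up to 6 called and 4 uncalled members of each list (all of lists with 8 or fewer), the isoform pairs and the 5 largest differences between days; 31 of 232 genes named fall outside this rule and were chosen after their values were seen. Alternatives covered the offset, filter, scaling, variance model, arrays in the fit, control group and each array left out. Labels do not say whether rats of a group shared a day or cage. The p-values set each change against a spread pooled over the rats of all 4 groups, with the intensity trend. They do not allow for such sharing. The number of arrays limits the precision.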

Additional observations from a re-analysis of the deposited data

Results flagged for a closer look

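Rpl37a, a ribosomal protein gene, was the 1 probe set for which limma called a difference between the IR effects of the 2 days: the effect at 7 d minus that at 2 d was 1.55 (adjusted p = 0.0287). The change was 0.24 at 7 d, not called, and -1.30 at 2 d. Only the 2d-sham arrays differed from the rest, at 39104, 52874 and 55717 against 13025 to 20756 on all other arrays. The cause of the high 2d-sham signals was not tested.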

How the results depend on the processing

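The counts of calls depend most on which arrays enter the fit. Leaving out 1 array at a time, limma called 121 to 765 probe sets higher and 54 to 698 lower, with the lowest counts without sham replicate 82. Against the 2d-sham arrays as control the counts were 1335 higher and 1170 lower. For the difference between the days, which had 1 call, the count was 0 to 6 when 1 array was left out, 2 with 4 times the offset, and 0 with no filter or without the intensity trend; 582 to 1092 probe sets had an unadjusted p under 0.05 over all settings.

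Of the 194 named genes that were called, 125 lost the call without sham replicate 82, 43 with no filter, 35 without the trend, 33 with only the 6 arrays of 7 d, 10 after median centring and 11 after quantile normalization. Of called genes, C10h16orf89 (0.10) and Psma1 (0.08) changed sign against the 2d-sham arrays, and Rpl37a then gave -1.51, Myl4 0.36, Nppa 0.12, Spp1 -1.26 and Hk2 -0.37. Other signs changed among genes near 0. Quantile normalization gave 0.02 for Cox6a1, 0.10 for Cox8a, -0.05 for Hk2 and 0.02 for Mb, and median centring -0.06 for Hk2 and -0.05 for Pgam1. With 1 array left out the range was -0.18 to 0.07 for Cox6a1, -0.13 to 0.08 for Cox8a, -0.08 to 0.11 for Hk2, -0.01 to 0.19 for Mgp, -0.07 to 0.09 for Pgam1 and -0.00 to 1.4 for Spp1. Other probe sets of a gene gave the opposite sign for Atp2a2 (0.08), Cacnb2 (0.10), Mmp2 (-0.09), P4ha2 (-0.27), Pdk2 (0.03), Sdc3 (0.21), Sfrp4 (-0.32) and Tpm1 (1.11 and 0.27). The cause of these changes was not tested. No paired analysis was possible because the groups share no replicate number.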

Other observations

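Several called genes, most of them outside the lists above, belong to known pathways and were picked after their values were seen and carry no further test. Enzymes and substrates of vitamin K dependent carboxylation were among them: the carboxylase Ggcx rose by 0.77 (SE 0.15), the reductase Vkorc1, the target of warfarin, by 0.86, and the substrate Pros1, protein S, by 1.23, whereas the matrix substrate Mgp gave 0.08 and was not called. For heparan sulphate, Ext1, which builds the chain, rose by 0.78, Sulf2, which removes sulphate from it, by 0.73, and the carrier Gpc6, a glypican, by 0.74, beside the syndecans Sdc1 and Sdc2. The syndecan Sdc3 went the other way, at -0.67 (SE 0.19), and its other probe set gave 0.21.

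Among genes that fell were further steps of mitochondrial protein supply. Alas1, the first enzyme of haem synthesis, fell by 0.66 and Hccs, which attaches haem to cytochrome c, by 0.73, beside the sulphur donor Nfs1. Of mitochondrial translation, the elongation factor Tufm fell by 0.69 and the threonyl-tRNA synthetase Tars2 by 0.65. Other probe sets of Hccs (-0.22) and Tars2 (-0.14) did not pass. A pair outside the isoform list showed the same split: Rpl3l, the ribosomal protein of striated muscle, fell by 0.70, and its ubiquitous relative Rpl3 rose by 0.58.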
